A study of Mus musculus with 2 samples.

Results

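The 35 genes described here encode chaperones, folding enzymes, degradation factors, stress sensors and translocation subunits of the endoplasmic reticulum (ER). They were taken by gene symbol, current or older, from 27591 genes and 41174 distinct probes on the array. They had 70 probes, of which 69 were above background by the rule given under the processing, and all 35 genes could be tested. Manf was found under its older name Armet, and the 4 probes of Dnajc3 under the older name Dnajc3a.

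RNA came from B cells sorted by flow cytometry from mouse peripheral lymph nodes and isolated at once, without culture. The knock-out cells came from the strain B6.129P2(C)-Ccr7tm1Rfor/J, which carries a targeted Ccr7 allele in all of its cells. The wild-type cells came from C57BL/6J mice. Of 12 sorted samples, 6 of each genotype, RNA was pooled in sets of 3, which gave 2 pools of each genotype and 2 two-colour arrays with 1 knock-out and 1 wild-type pool each. Cy5 marked the knock-out pool on array 1 and the wild-type pool on array 2. The sources used here give neither age nor sex nor the markers of the sort gate. The study asks how the transcripts of these B cells differ when Ccr7, the chemokine receptor that guides lymphocytes into and within lymph nodes, is missing.

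Secreted and membrane proteins enter the ER through the Sec61 channel, where chaperones, lectins and disulfide isomerases fold them. Proteins that fail to fold are returned to the cytosol and degraded. When unfolded protein builds up, the sensors IRE1 (gene Ern1), PERK (gene Eif2ak3) and ATF6 start the unfolded protein response, through spliced XBP1, ATF4 and cleaved ATF6, which raise the transcription of many of the genes described here. In B cells this machinery is known for its large expansion when they become plasma cells and secrete antibody, a step that needs XBP1.

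Many promoters of this response carry the ER stress response element (ERSE), read by ATF6 together with NF-Y. It was searched as CCAAT, 9 bases of any kind, then CCACG on both strands of the 300 bases around each gene's start (250 before, 50 after) in RefSeq's promoter table for GRCm38.p6. Of the 35 genes, 29 were in that table, with 30 promoters. The ERSE letters stood in 9 of the 30 promoters and in 39 of all 32851 promoters (0.119%). The stretches below are shown because they are a sequence feature that 9 of these 30 promoters share. The genes were picked by symbol, but as genes of the response for which this element is known. Its share among them is therefore not independent of that choice. Capitals mark the CCAAT and CCACG parts. Each is read 5′ to 3′ on the strand on which CCAAT comes first, which is the gene's own strand for Hspa5, Canx, Pdia6, Dnajc3, Syvn1 and the first stretch of Hsp90b1, and the other strand for the rest.
Hspa5, chr2:34772015-34772053: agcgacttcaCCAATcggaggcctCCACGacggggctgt
Hsp90b1 first, chr10:86705628-86705666: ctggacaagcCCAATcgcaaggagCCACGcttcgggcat
Hsp90b1 second, chr10:86705523-86705561: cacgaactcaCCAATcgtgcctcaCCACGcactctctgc
Dnajc3, chr14:118937817-118937855: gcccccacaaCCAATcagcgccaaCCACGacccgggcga
Calr, chr8:84847065-84847103: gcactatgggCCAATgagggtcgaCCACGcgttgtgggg
Canx, chr11:50325790-50325828: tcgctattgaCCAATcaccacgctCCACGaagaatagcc
Pdia6, chr12:17266481-17266519: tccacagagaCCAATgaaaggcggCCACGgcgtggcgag
Ero1lb, chr13:12565672-12565710: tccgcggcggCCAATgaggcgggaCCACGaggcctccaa
Syvn1, chr19:6046522-6046560: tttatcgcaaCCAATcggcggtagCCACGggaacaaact
Derl3, chr10:75893232-75893270: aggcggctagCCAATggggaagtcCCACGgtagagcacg

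The first base of the element lay between 44 bases before the start (Syvn1) and 212 bases before it (the first stretch of Hsp90b1), and at 65 bases before the start of Hspa5. The whole 300-base promoter of Hspa5, the gene of the chaperone BiP, is printed because it is the textbook target of the response. It lies on the + strand at chr2:34771840-34772139, and the capitals mark the same element.
Hspa5 promoter: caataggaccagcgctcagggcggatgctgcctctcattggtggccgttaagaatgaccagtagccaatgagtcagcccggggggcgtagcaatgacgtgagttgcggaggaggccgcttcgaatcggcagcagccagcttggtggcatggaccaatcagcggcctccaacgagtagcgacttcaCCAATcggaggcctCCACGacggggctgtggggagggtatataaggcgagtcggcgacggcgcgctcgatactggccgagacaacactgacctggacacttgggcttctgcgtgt

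A related element, ERSE-II, was searched as ATTGG, any base, then CCACG and stood in 12 of all promoters (0.037%) and in 2 of the 30. These belong to Herpud1 and Dnajb11, both on the gene's + strand. In Herpud1 the element began 52 bases before the start, and in Dnajb11 it lay after the start, on bases 7 to 17. Capitals mark its ATTGG and CCACG parts.
Herpud1, chr8:94386367-94386397: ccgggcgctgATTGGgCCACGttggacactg
Dnajb11, chr16:22857842-22857872: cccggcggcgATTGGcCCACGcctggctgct

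The UPRE letters TGACGTGG, known as a site of spliced XBP1, stood in 0 of the 30 promoters and in 222 of all (0.676%). The AARE letters TGATGNAA, a site type of ATF4 and its partners, stood in the promoters of Trib3 and Herpud1, 2 of the 30, and in 1304 of all (3.969%). All motifs were searched on both strands. ERSE, ERSE-II and UPRE share the letters CCACG on one strand or the other, so 1 stretch can match more than 1 of them. A match is a description of the letters and not evidence that a factor binds there.

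Of the 35 genes, 0 passed the limma test at an adjusted p of 0.05, against 18 of 17683 genes tested (0.102%), of which 12 were higher (0.0679%) and 6 lower (0.0339%) in the knock-out. The lowest adjusted p among the 35 was 0.564 (limma, Benjamini-Hochberg over all genes, n = 2 arrays). At an unadjusted p of 0.05, 0 of the 35 passed, against 1608 of all genes (9.09%). The log2 ratio, knock-out over wild-type, had the same sign on both arrays in 21 of the 35. It was higher on both arrays in 14 (all genes 24.2%), although in 1 after median centring and in 0 without within-array normalization, which move all genes down. It was lower on both arrays in 7 (all genes 30%). In the remaining 14 the arrays gave opposite signs (all genes 45.8%).

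The median log2 ratio over the 35 genes was 0.01, against -0.01 over all genes tested. It was 0.02 on array 1 and 0.11 on array 2, where all genes had medians of -0.0047 and -0.02. The means of single genes ran between -0.26 (Sec11c) and 0.43 (Edem1), and 0 of the 35 reached 1.5-fold (all genes 1.79%). Their median absolute log2 ratio was 0.12, against 0.11 for all genes. A failed test does not show equal levels, so the 95% intervals of the moderated fit matter here. Each interval held 0, and each reached between 0.30 and 0.50 to either side of its mean. A 1.5-fold difference lay inside the interval of 4 genes, upward for Sdf2l1, Manf and Edem1 and downward for Sec11c. A 2-fold difference in either direction lay outside the interval of each of the 35. The SE and intervals rest on 1 residual degree of freedom per gene plus 6.18 from the spread pooled over all genes, and they do not measure the spread between the 12 sorted samples. In bulk RNA, fewer cells of a type and less RNA per cell cannot be told apart.

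**Figure D1:**
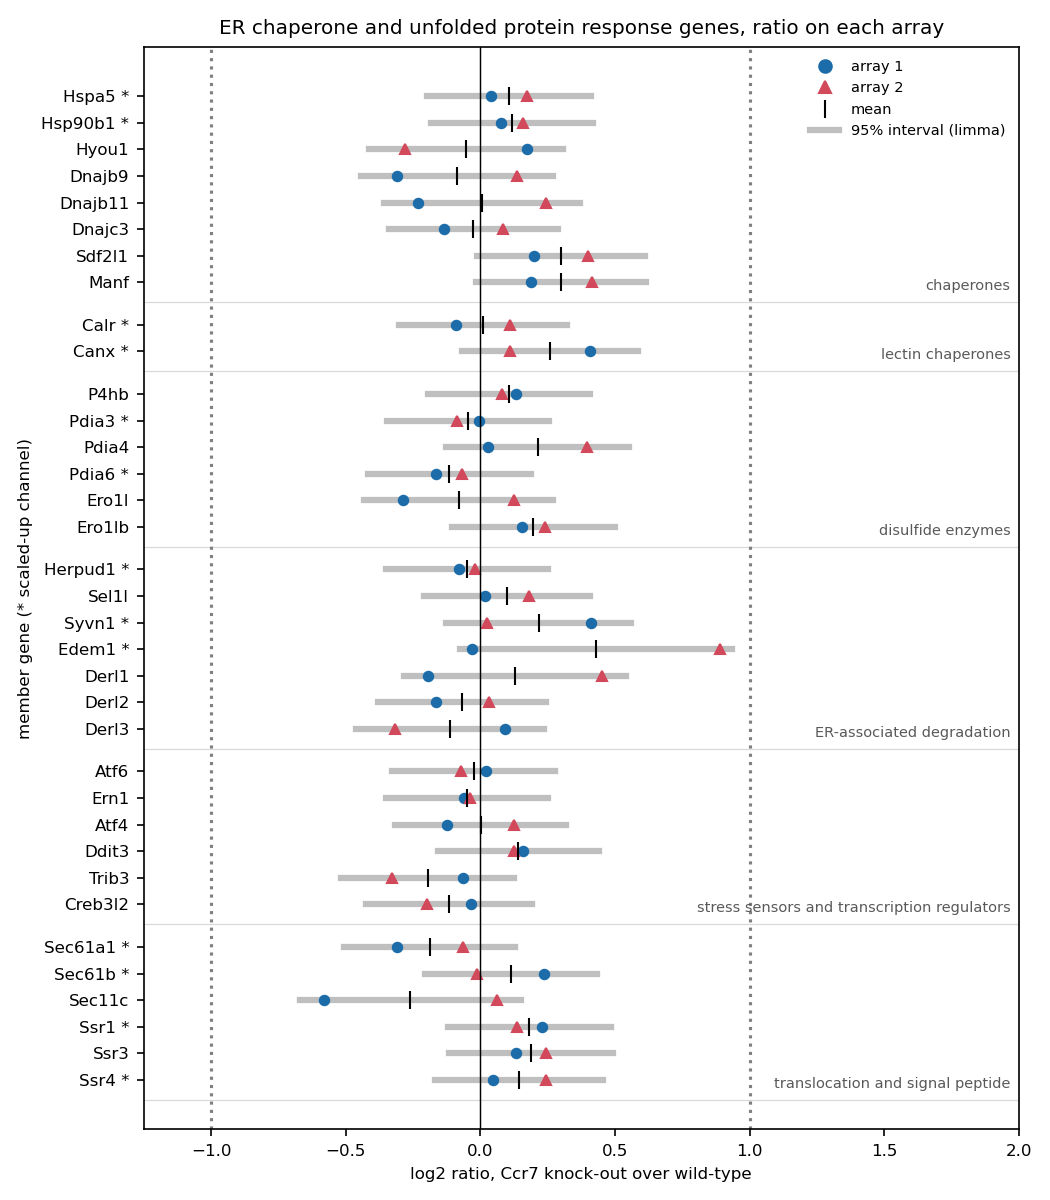
Log2 ratio, Ccr7 knock-out over wild-type, for the 35 genes, with array 1 as circles, array 2 as triangles, the mean as a tick and the 95% interval of the limma fit as a grey bar; dotted lines mark 2-fold, and an asterisk marks a gene whose brightest probe was scaled up from the scan at low gain. Each grey bar crosses 0 and none reaches a dotted line, and Edem1 has the widest gap between its arrays.

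Levels are given below as log2 normalized intensity, with both channels brought to one scale. A level depends on the probe, so each is set only against the same probe in the other genotype. The targeted gene itself, Ccr7, gave ratios of -1.11 and -0.74 on the arrays and averaged -0.93 ± 0.15 (SE, n = 2), with a limma adjusted p of 0.143. Whether that probe lies in the deleted part is not known here. On each array 58.4% to 68.8% of spots were above background per channel and none was saturated. With 2 arrays, precision is limited by their number.

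Among the chaperones, 4 of 8 were higher on both arrays (Hspa5, Hsp90b1, Sdf2l1 and Manf), 0 were lower on both, and 4 had opposite signs (Hyou1, Dnajb9, Dnajb11 and Dnajc3). None passed the test, and the median of the 8 was 0.06. Hspa5 encodes BiP, the ER Hsp70 that also holds the stress sensors inactive. Its level was 14.82 and 15.14 in the knock-out, on arrays 1 and 2, against 14.78 and 14.97 in the wild-type. The ratios were 0.04 and 0.17, with a mean of 0.11 ± 0.13 (SE), an interval of -0.20 to 0.41 and a limma adjusted p of 0.912. The knock-out was the higher one on both arrays, but the wild-type level on array 2 was above the knock-out level on array 1, so the genotypes overlap across arrays. In the authors' deposited table the ratio of Hspa5 was -0.021 on array 1 and 0.20 on array 2. Hsp90b1, the ER paralog of Hsp90, had a mean of 0.12 and ratios of 0.08 and 0.16. Its other probe had ratios of 0.11 and -0.03.

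Sdf2l1, a partner of BiP and its ERdj cochaperones, had levels of 11.18 and 12.04 in the knock-out against 10.98 and 11.64 in the wild-type. Its ratio was 0.20 on array 1 and 0.40 on array 2, a mean of 0.30 ± 0.13 with an interval of -0.01 to 0.61. It had the lowest adjusted p of the 35, 0.564 (limma, unadjusted p 0.057). Manf, a small secreted ER protein that binds BiP, gave nearly the same picture. Its levels were 13.75 and 14.17 in the knock-out against 13.57 and 13.76 in the wild-type. The ratios were 0.19 and 0.41, and the mean was 0.30 ± 0.13 with an interval of -0.02 to 0.62 and an adjusted p of 0.570 (limma). For both genes the knock-out was the higher one on each array, while the wild-type level on array 2 was above the knock-out level on array 1. Neither probe was scaled up from the low gain. These are the only 2 of the 35 that met the rule for naming by size, a mean of at least 0.3 in one direction on both arrays. After median centring their means were -0.0050 for Sdf2l1 and 0.0034 for Manf, where the median of all genes was -0.17.

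Dnajc3 (P58IPK) is a cochaperone of BiP and was first described as an inhibitor of PERK. The brightest of its 4 probes read 11.36 and 11.60 in the knock-out against 11.50 and 11.51 in the wild-type. Its ratios were -0.13 and 0.08, with a mean of -0.03 ± 0.13 and an interval of -0.34 to 0.29. The 3 other probes had means of -0.29, -0.05 and 0.39, so the gene has no agreed sign. The last of these, with ratios of 0.61 and 0.16, had an unadjusted p of 0.036 and an adjusted p of 0.468 in the limma fit over all probes. The remaining chaperones, Hyou1 (Grp170), Dnajb9 (ERdj4) and Dnajb11 (ERdj3), had means between -0.09 and 0.01 and opposite signs on the arrays.

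The lectin chaperones Calr (calreticulin) and Canx (calnexin) hold newly made glycoproteins until they are folded. The brightest Canx probe read 14.12 and 13.71 in the knock-out against 13.71 and 13.60 in the wild-type. Its ratios were 0.41 and 0.11, with a mean of 0.26 ± 0.14, an interval of -0.07 to 0.58 and an adjusted p of 0.652 (limma). Its other probes gave means of -0.01 (-0.28 and 0.27 on the arrays) and -0.22 (0.03 and -0.48), so the higher value rests on 1 probe, which was scaled up. Calr had ratios of -0.09 and 0.11 and a mean of 0.01 ± 0.13.

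Of the 6 disulfide enzymes, 3 were higher on both arrays (P4hb, Pdia4 and Ero1lb), 2 were lower on both (Pdia3 and Pdia6) and Ero1l had opposite signs. P4hb, Pdia3, Pdia4 and Pdia6 are protein disulfide isomerases, and Ero1l and Ero1lb are the oxidases that recharge them. Their median was 0.03, and their means ran between -0.12 for Pdia6 and 0.21 for Pdia4. Ero1l had levels of 8.42 and 8.65 in the knock-out against 8.71 and 8.53 in the wild-type. Its ratios were -0.29 and 0.13, with a mean of -0.08 ± 0.15 and an interval of -0.43 to 0.27. Its other probe had ratios of 0.08 and 0.39 and a mean of 0.24. Ero1lb, the oxidase that pancreatic and other secretory cells are known to favour, had ratios of 0.15 and 0.24 and a mean of 0.20 ± 0.13. A second Ero1lb probe, with ratios of 0.36 and 0.30, had a mean of 0.33 and an unadjusted p of 0.037 (adjusted p 0.469, limma over all probes).

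Pdia6 had the largest gap between probes among these enzymes. Its brightest probe read 14.79 and 14.87 in the knock-out against 14.95 and 14.93 in the wild-type. The ratios were -0.16 and -0.07, with a mean of -0.12 ± 0.13, an interval of -0.42 to 0.19 and an adjusted p of 0.897 (limma). The mean in the authors' deposited table was -0.19. On this probe the knock-out was lower on both arrays and the genotypes did not overlap across arrays. Another probe, 13731 bases towards the 5′ end of the gene on mm8, read 9.85 and 10.98 in the knock-out against 9.31 and 10.42 in the wild-type. Its ratios were 0.54 and 0.55, with a mean of 0.54 and an interval of 0.24 to 0.85. In the limma fit over all probes its unadjusted p was 0.0033 and its adjusted p 0.249. The last 2 probes had means of 0.02 and -0.01. The outer 2 are printed to let their targets be traced. They lie on the + strand of mm8, per the file headers, at chr12:17309637-17309696 and chr12:17295906-17295965.
Pdia6 brightest probe: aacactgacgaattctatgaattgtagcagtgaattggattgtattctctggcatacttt
Pdia6 5′ probe: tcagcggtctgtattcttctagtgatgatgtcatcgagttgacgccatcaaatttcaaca

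ER-associated degradation was represented by 7 genes, with a median of 0.10. Of these Sel1l and Syvn1 were higher on both arrays, Herpud1 was lower on both, and 4 had opposite signs (Edem1, Derl1, Derl2 and Derl3). Edem1 encodes a lectin that hands misfolded glycoproteins to degradation. Its brightest probe read 14.19 and 15.16 in the knock-out against 14.23 and 14.27 in the wild-type. The ratio was -0.03 on array 1 and 0.89 on array 2, so the mean of 0.43 ± 0.21, the highest of the 35, comes from 1 array. The interval was -0.07 to 0.93 and the adjusted p 0.624 (limma). The probe was scaled up, and the 2 other Edem1 probes had means of 0.12 (0.16 and 0.08) and -0.12 (-0.30 and 0.06).

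Syvn1 (HRD1) is the ubiquitin ligase at the core of this pathway, and Sel1l is its adaptor. The brightest Syvn1 probe read 16.23 and 15.43 in the knock-out against 15.82 and 15.41 in the wild-type, with ratios of 0.41 and 0.02. Its mean was 0.22 ± 0.15, with an interval of -0.13 to 0.56 and an adjusted p of 0.759 (limma). In the authors' deposited table this probe had ratios of -0.0013 and 0.023, a mean of 0.011, so it was not higher on both arrays there. It was scaled up, and the other Syvn1 probe had ratios of 0.13 and -0.25 and a mean of -0.06. Sel1l had ratios of 0.02 and 0.18, and Herpud1, a membrane protein of the ligase complex, had -0.08 and -0.02. In the deposited table the ratios of Herpud1 were -0.22 and 0.05, so it was not lower on both arrays there.

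The derlins are membrane proteins of the channel through which substrates leave the ER. Derl1 read 12.62 and 12.86 in the knock-out against 12.82 and 12.41 in the wild-type on its brightest probe. The ratios were -0.20 and 0.45, with a mean of 0.13 ± 0.18 and an interval of -0.28 to 0.54. Of its other probes, 2 were higher on both arrays, with means of 0.44 (0.29 and 0.59) and 0.30 (0.13 and 0.47), and the last had a mean of -0.01. The first of these had an unadjusted p of 0.014 and an adjusted p of 0.362 in the limma fit over all probes. Derl2 read 13.13 and 13.72 in the knock-out against 13.29 and 13.69 in the wild-type, with ratios of -0.17 and 0.03 and a mean of -0.07 ± 0.13. Its other probe had a mean of 0.09. Derl3, the derlin with a narrow tissue range, had ratios of 0.09 and -0.32.

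**Figure D2:**
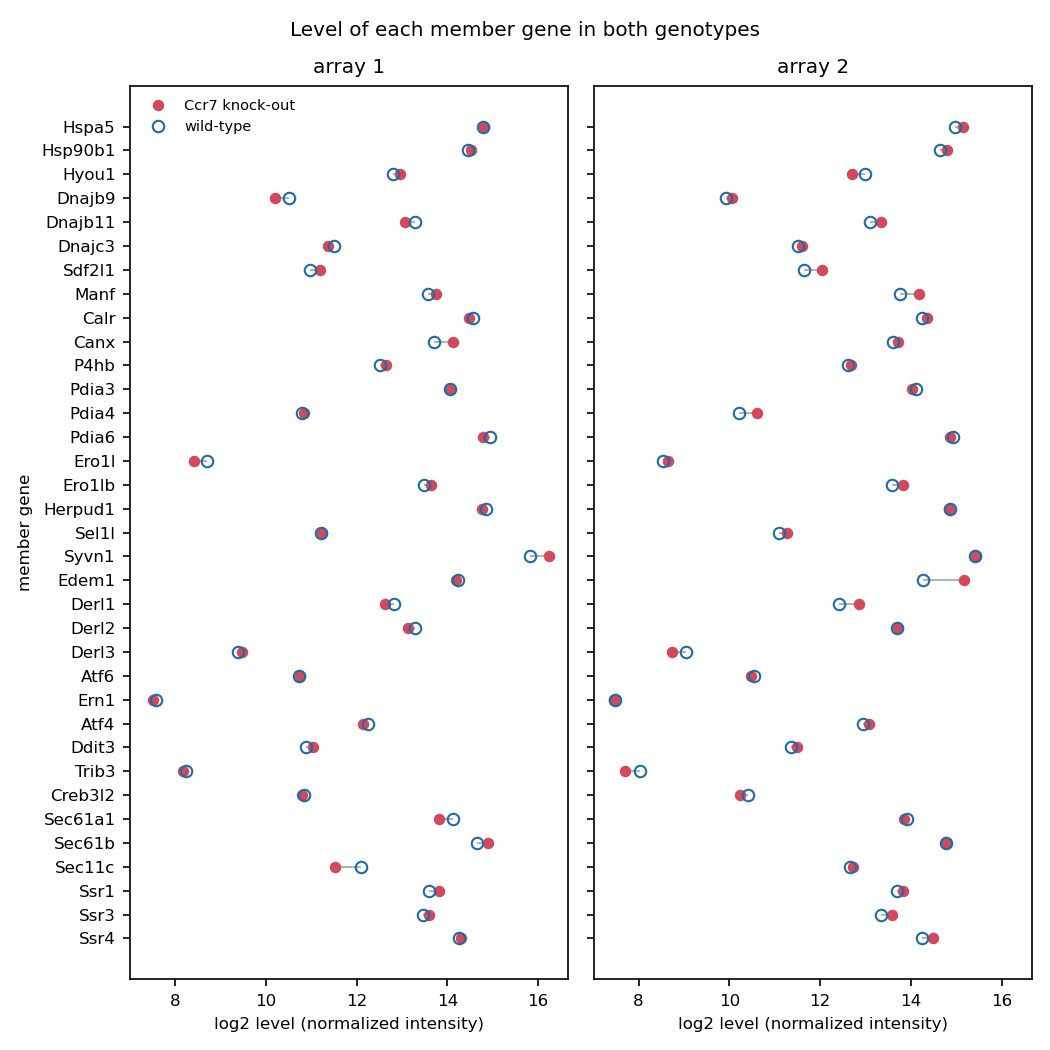
Level of the brightest probe of each of the 35 genes on each array, as log2 normalized intensity, with Ccr7 knock-out as filled circles and wild-type as open circles, joined by a line. The paired circles overlap or lie close for most genes on both arrays, and the longest line is that of Edem1 on array 2; levels of different genes come from different probes and are not comparable.

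The stress sensors and their transcription regulators had a median of -0.04 over 6 genes, with 1 higher on both arrays, 3 lower on both and 2 with opposite signs. The 3 lower ones were Ern1, Trib3 and Creb3l2. In the authors' deposited table Ern1 had -0.089 and 0.039 and Creb3l2 had 0.098 and -0.27, so only Trib3 was lower on both there. Ern1 encodes IRE1, the sensor whose ribonuclease splices the Xbp1 transcript. Its level was low, 7.51 and 7.45 in the knock-out against 7.57 and 7.49 in the wild-type, and the background offset shrinks ratios of dim probes towards 0. The ratios were -0.06 and -0.04, with a mean of -0.05 ± 0.13 and an interval of -0.35 to 0.25. Atf6, the sensor that becomes a transcription factor once cleaved in the Golgi, read 10.75 and 10.48 in the knock-out against 10.73 and 10.55 in the wild-type. Its ratios were 0.02 and -0.07, with a mean of -0.02 ± 0.13 and an interval of -0.33 to 0.28. A second Atf6 probe had ratios of 0.09 and -0.09 and a mean of 0.00.

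Atf4 is the factor made when PERK slows translation, and it is regulated mainly at that step. Its transcript read 12.13 and 13.07 in the knock-out against 12.26 and 12.95 in the wild-type. The ratios were -0.12 and 0.12, with a mean of 0.00 ± 0.14 and an interval of -0.32 to 0.32. Ddit3 (CHOP), a target of ATF4 linked to cell death under stress, read 11.05 and 11.48 in the knock-out against 10.89 and 11.36 in the wild-type. Its ratios of 0.16 and 0.13 were close to each other, with a mean of 0.14 ± 0.13, an interval of -0.16 to 0.44 and an adjusted p of 0.852 (limma). It was the only 1 of these 6 that was higher on both arrays.

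Trib3, a pseudokinase induced by ATF4 and CHOP, read 8.17 and 7.69 in the knock-out against 8.23 and 8.02 in the wild-type. The ratios were -0.06 and -0.33, with a mean of -0.20 ± 0.14, an interval of -0.52 to 0.13 and an adjusted p of 0.768 (limma). Its other probe had ratios of 0.13 and -0.02 and a mean of 0.05. Creb3l2, a membrane-bound relative of ATF6, read 10.80 and 10.22 in the knock-out against 10.83 and 10.42 in the wild-type. Its ratios were -0.03 and -0.20, with a mean of -0.12 ± 0.13, and its other probe had a mean of 0.02. Trib3 and Creb3l2 were thus lower on both arrays on their brightest probe and not on the other one.

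The 6 translocation genes had a median of 0.13, with 3 higher on both arrays (Ssr1, Ssr3 and Ssr4), Sec61a1 lower on both, and Sec61b and Sec11c with opposite signs. Ssr1, Ssr3 and Ssr4 encode subunits of the translocon-associated protein complex. Ssr3 had ratios of 0.13 and 0.24, and Ssr4 had 0.05 and 0.24. The other Ssr3 probes had opposite signs on the arrays (-0.18 and 0.35, and -0.01 and 0.06). The other Ssr4 probe had 0.03 and 0.19. Sec61a1, the pore subunit of the channel, read 13.81 and 13.85 in the knock-out against 14.12 and 13.92 in the wild-type. Its ratios were -0.31 and -0.07, with a mean of -0.19 ± 0.14, an interval of -0.51 to 0.13 and an adjusted p of 0.779 (limma). Its other probes had means of 0.21 (0.21 and 0.20) and -0.02. Sec11c, a catalytic subunit of the signal peptidase, had a ratio of -0.58 on array 1 and 0.06 on array 2, and its mean of -0.26 ± 0.17 was the lowest of the 35.

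Ssr1 had the widest split between probes of all 35 genes. Its brightest probe read 13.82 and 13.83 in the knock-out against 13.59 and 13.69 in the wild-type. The ratios were 0.23 and 0.14, with a mean of 0.18 ± 0.13, an interval of -0.12 to 0.48 and an adjusted p of 0.773 (limma). A probe 5141 bases towards the 5′ end had ratios of -0.02 and 0.35 and a mean of 0.17. The third probe, 6675 bases towards the 3′ side, read 8.27 and 8.49 in the knock-out against 9.28 and 8.87 in the wild-type. Its ratios were -1.003 and -0.38, with a mean of -0.69 and an interval of -1.09 to -0.29. Its unadjusted p was 0.0039 and its adjusted p 0.258 in the limma fit over all probes. The brightest and the third probe are printed because they differ in sign. They lie on the - strand of mm8, per the file headers, at chr13:37985744-37985803 and chr13:37979069-37979128, and whether the third lies in an exon of Ssr1 could not be checked here.
Ssr1 brightest probe: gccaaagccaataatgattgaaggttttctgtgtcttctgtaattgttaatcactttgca
Ssr1 3′ probe: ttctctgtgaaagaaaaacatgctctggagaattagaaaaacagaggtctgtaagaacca

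Of the 35 genes, 21 had several probes, and in 13 of these the probes above background differed in the sign of their mean. The 13 were Dnajc3, Canx, Pdia6, Ero1l, Syvn1, Edem1, Derl1, Derl2, Atf6, Trib3, Creb3l2, Sec61a1 and Ssr1. In the fit over all probes, 5 of the 69 passed an unadjusted p of 0.05 (all probes 9.83%) and 0 an adjusted p of 0.05 (all probes 0.119%). The 5 belonged to Dnajc3, Pdia6, Ero1lb, Derl1 and Ssr1, each a probe other than the brightest, and 4 of them were higher in the knock-out.

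**Figure D3:**
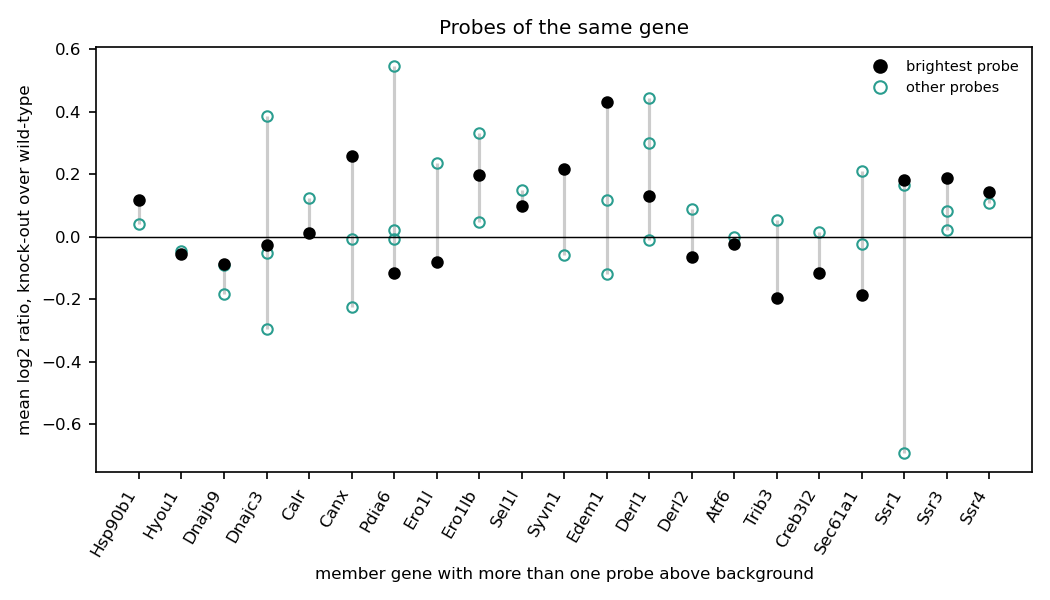
Mean log2 ratio, knock-out over wild-type, for each probe above background of the 21 genes with several probes, with the brightest probe filled and the others open. The line crosses 0 in 13 genes, most widely in Ssr1, whose probes run between -0.69 and 0.18.

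The scanner read each array at a high and a low gain and flagged the brightest spots, whose values it scaled up from the scan at low gain. The flag was present on the brightest probe of 13 of the 35 genes, which had a median log2 ratio of 0.11, and on none of the other 22, whose median was -0.01. Over all genes the medians were 0.02 with the flag and -0.01 without it. Without the flagged spots, 29 of the 35 genes could still be tested, and Hspa5, Hsp90b1, Pdia3, Herpud1, Sec61b and Ssr4 had no probe left. In that fit 0 of the 29 passed an adjusted p of 0.05 (all genes 0.776%) and 3 passed an unadjusted p of 0.05 (all genes 11.5%). These were Sdf2l1 at 0.30 (p 0.048), Manf at 0.30 (p 0.050), whose values did not move, and Ssr1, whose dim probe at -0.69 then stood for the gene (adjusted p 0.080, limma). Another, dimmer probe then also stood for Canx, Edem1 and Syvn1. The mean of Canx was -0.22 on that probe against 0.26 on its brightest. For Edem1 it was -0.12 against 0.43, and for Syvn1 -0.06 against 0.22. These are differences between probes and not 1 probe read in 2 ways, and the part of the scaling in them was not tested.

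The 9 genes with an ERSE, whose stretches are printed above, had a median log2 ratio of 0.11 and ran between -0.12 (Pdia6) and 0.26 (Canx). Of these 5 were higher on both arrays and 1 was lower on both. The 20 other genes with a promoter in the table had a median of 0.05, with 8 higher on both arrays and 5 lower on both. Outside the 35, 28 further genes had the element, and the 10 of them that could be tested had a median of 0.08, with 4 higher on both arrays, 2 lower on both and 0 past the test at an adjusted or an unadjusted p of 0.05. Herpud1 and Dnajb11, with ERSE-II, had means of -0.05 and 0.01. Trib3 and Herpud1, with the AARE letters, had means of -0.20 and -0.05 and were lower on both arrays on the brightest probe (all genes 30%). The other Trib3 probe had ratios of 0.13 and -0.02. In the authors' deposited table Herpud1 had -0.22 and 0.05, so neither gene kept this direction throughout.

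The other genes of the pathway were taken from 5 lists of ER genes that share none of the 35. Of 98 listed genes 93 could be tested, and 0 of the 93 passed the adjusted threshold, with 5 higher and 4 lower at an unadjusted p of 0.05, a share close to the 9.09% of all genes. Their median log2 ratio was 0.04. Over the lists, the median was 0.01 for other sensors and regulators (16 tested), 0.05 for other folding factors (21), 0.0047 for other degradation factors (15), 0.13 for other translocation and glycosylation genes (26) and 0.01 for ER exit and return (15). Over the 93 genes, 34 were higher on both arrays (all genes 24.2%) and 17 lower on both (all genes 30%). The translocation and glycosylation list held 14 of the former and 2 of the latter. These counts were not repeated with median centring or without within-array normalization, which move all genes down.

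Xbp1, whose transcript IRE1 splices, read 11.97 and 13.05 in the knock-out against 11.42 and 12.20 in the wild-type. Its ratios were 0.55 and 0.85, with a mean of 0.70 ± 0.14, an interval of 0.37 to 1.03 and an adjusted p of 0.207 (limma, unadjusted p 0.0014). The knock-out was higher on each array, and the wild-type level on array 2 was above the knock-out level on array 1. Eif2ak3 (PERK) had ratios of 0.07 and 0.02 and a mean of 0.04 ± 0.13. Splicing of the Xbp1 transcript was not measured.

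Among the other regulators the largest differences went opposite ways. Ddit4, an mTOR inhibitor that several stresses induce, read 15.75 and 14.91 in the knock-out against 14.48 and 14.12 in the wild-type. Its ratios were 1.26 and 0.79, with a mean of 1.03 ± 0.15 and an adjusted p of 0.132 (limma), on a scaled-up probe. Ppp1r15a (GADD34), the phosphatase subunit that ends the PERK signal, read 8.36 and 7.96 in the knock-out against 9.75 and 8.56 in the wild-type. Its ratios were -1.40 and -0.60, with a mean of -0.998 ± 0.20 and an adjusted p of 0.207 (limma). Neither gene had overlapping levels between the genotypes, and each had an interval that did not hold 0, unlike Atf4, Ddit3 and Trib3 above, but none of these genes passed the threshold over all genes.

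In the folding list, Fkbp11, a prolyl isomerase of secretory cells, had ratios of -0.53 and -0.65 and a mean of -0.59 ± 0.13 (limma adjusted p 0.241). Dnajc10 (ERdj5), a disulfide reductase, had ratios of 0.22 and 0.25. In the degradation list, the ubiquitin ligase Rnf5 had 0.76 and 0.12, and the ubiquitin-conjugating enzyme Ube2j2 had 0.16 and 0.47. In the translocation list, Ssr2, the remaining subunit of the complex of Ssr1, Ssr3 and Ssr4, had 0.61 and 0.47 and a mean of 0.54 ± 0.13 (limma adjusted p 0.271). Stt3a, a catalytic subunit of the oligosaccharyltransferase, had 0.19 and 0.51. In the ER exit list, the COPII coat genes Sec13 and Sec31a had means of 0.29 and -0.20.

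**Figure D4:**
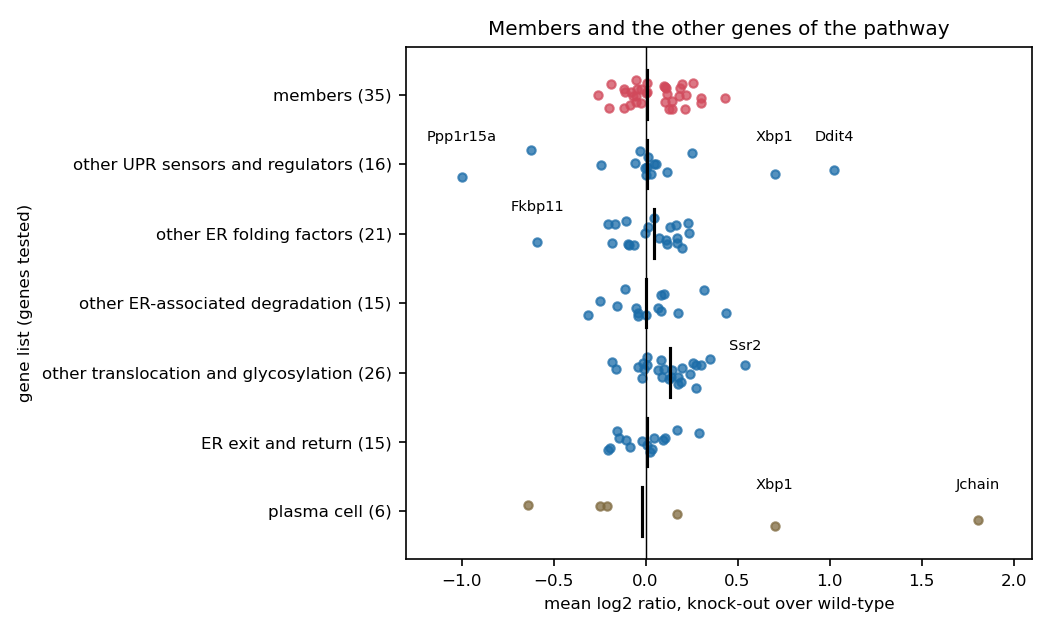
Mean log2 ratio, knock-out over wild-type, of the 35 genes (members, red), of 5 lists of other ER genes (blue) and of plasma cell markers (brown), 1 point per gene tested, with the median of each list as a black line and the vertical position within a list random. The 35 genes lie between -0.26 and 0.43, while Ddit4 at 1.03, Xbp1 at 0.70 and Ppp1r15a at -0.998 lie outside that range.

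Markers of plasma cells, in which this machinery is known to be expanded, were measured beside these genes. Jchain, the joining chain of secreted antibody, read 10.34 and 11.34 in the knock-out against 8.44 and 9.62 in the wild-type. It rose in the knock-out, with ratios of 1.89 and 1.72, a mean of 1.81 ± 0.13 and an adjusted p of 0.018 (limma), and its levels did not overlap between the genotypes. No gene of the array passed with the authors' deposited table, the scanner program's ratio, separate channels or the mean of a gene's probes. The same held without background subtraction and without within-array normalization, so Jchain did not pass under any of these settings. The other markers tested were Xbp1 (0.70), Mzb1 (0.17), Irf4 (-0.21), Prdm1 (-0.25) and Sdc1 (-0.64), given as mean log2 ratios that did not pass, and Tnfrsf17 was not above background. Of the 6 tested, 3 were higher on both arrays and 2 lower on both. Their summed level was 51687 and 54296 in the knock-out, against 45150 and 44905 in the wild-type, in units of normalized intensity. The part of plasma cells in the values of the 35 genes was not tested.

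All 9 B cell markers, the defining transcripts of the labelled cell type, were above background. Their summed level was 567439 and 373928 in the knock-out against 344105 and 559968 in the wild-type, so the genotypes overlapped. The larger sum lay in the Cy5 channel on each array, so this overlap does not show equal B cell content. Cd79b (1.45 and -1.52) and Ms4a1 (1.75 and -1.23) had opposite signs on the arrays and were higher in the Cy5 channel on each. Of the 9 markers, 2 were higher on both arrays, Cd22 (mean 0.30) and Blk (mean 0.23). Only Pax5 was lower on both, 6 had opposite signs, and the median of the list was 0.17. Pax5, a transcription factor that maintains B cell identity, had the largest mean difference of the list. It read 13.93 and 12.54 in the knock-out against 14.72 and 13.40 in the wild-type. Its ratios were -0.79 and -0.86, with a mean of -0.82 ± 0.13, an unadjusted p of 0.00032 and an adjusted p of 0.142 (limma), on a scaled-up probe.

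Of the 7 T cell markers, all tested, 4 were lower on both arrays (Cd3d, Thy1, Cd8a and Cd4), 1 was higher on both (Lck), and 0 passed the adjusted threshold. At an unadjusted p of 0.05 (limma), 3 of the 7 were lower, against 1054 of 17683 genes tested. Their means were -0.78 for Thy1, -0.60 for Cd3d and -0.39 for Cd8a. Cd3e and Cd3g had opposite signs on the arrays and means of 0.03 and 0.01. The summed level was 13023 and 9494 in the knock-out against 11525 and 9229 in the wild-type, and most of it came from Lck. Without Lck it was 1141 and 1091 in the knock-out against 1350 and 1406 in the wild-type, with no overlap.

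Summed myeloid and dendritic markers (9 of 10 tested) were 10944 and 7222 in the knock-out, on arrays 1 and 2, against 5745 and 10764 in the wild-type. The larger sum lay in the Cy5 channel on each array, as it did for Lyz2 (1.22 and -0.60) and Lyz1 (1.18 and -0.44). Stromal and endothelial markers (6 of 7) ran between 2575 and 2896 in the knock-out and between 2688 and 2992 in the wild-type. NK markers (2 of 5) ran between 280 and 360 in the knock-out and between 417 and 452 in the wild-type. S100a8, Pdpn, Ncr1, Gzma and Gzmb were not above background by the rule. Over all markers tested, the NK and plasma cell sums did not overlap between the genotypes. With 2 pools of each genotype, sums that do not overlap are a description and not a test. The NK sum rests on Klrd1 and Nkg7, whose levels were low, between 6.92 and 8.23. Each list was also summed without its brightest marker, a choice made after seeing the data. The plasma cell sum without Mzb1 then overlapped, at 8715 and 14199 in the knock-out against 7395 and 8945 in the wild-type. The stromal sum without Pecam1 did not, at 710 and 736 in the knock-out against 683 and 658 in the wild-type. The part of these cell types in the values of the 35 genes was not tested.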

How the data were processed

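Both arrays are Agilent two-colour mouse arrays. The authors quantified them with Agilent Feature Extraction 9.5.3.1, per the submitters' processing notes, and the deposited files hold mean and background intensity of each spot in both colours. The files also hold that program's background-subtracted, dye-normalized log10 ratio of Cy5 over Cy3, per the file headers. The deposited value table holds log2 ratios, which equalled the program's ratio with its sign set to knock-out over wild-type at 42512 and 42515 of 43379 spots (tolerance 0.001). The other spots all carried the low-gain flag, which was set on 1958 and 1703 spots. Both arrays lay on 1 slide, so slide could not be tested as a batch. Probe positions are on mm8, per the file headers, and promoters on GRCm38.p6. No position was moved between the builds.

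From the intensity values, background was corrected by normexp (offset 50) and log2 ratios normalized by loess within each array (span 0.3, 4 iterations), with limma 3.58.1 and R 4.3.3. The 1639 control spots had weight 0 there. Spots flagged as outliers were dropped and spots of a probe averaged. A probe was kept where one genotype was well above background on both arrays. A gene was represented by its brightest probe, and a second fit used all probes. Ratios were turned to knock-out over wild-type and fitted with lmFit and eBayes over 17683 genes or 25975 probes. The swap cancels a dye effect in the mean, and what is left of it cannot be told apart from the difference between the pools. Levels come from the separate channels after loess and Aquantile scaling. P-values are two-sided and Benjamini-Hochberg adjusted, with a threshold of 0.05. Promoter letters were searched in RefSeq's table.

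Values in full are given for genes past the threshold, genes with a mean of at least 0.3 in one direction on both arrays, Hspa5, Atf4, Ddit3, Ern1, Atf6, and genes whose probes differ in sign. The probes of Ero1lb, Sec11c, Hsp90b1 and others beyond this rule are given in brief. Of the other pathway genes, Xbp1, Eif2ak3 and in each list the 2 largest means of one direction on both arrays are named. The genes and lists were chosen with earlier results of these data known. The alternatives were other background and normalization settings, the dim-probe filter, the probe rule, scaled-up spots, the prior, the deposited table, separate channels and leaving out each array.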

Additional observations from a re-analysis of the deposited data

How the results depend on the processing

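With 0 of the 35 genes past the threshold in the reported limma fit, the count was also 0 under each of 11 alternatives. Over all genes, 18 passed in the reported fit. No gene passed without background subtraction, without within-array normalization or with the scanner program's ratio. The same held for the mean of a gene's probes, the deposited table and separate channels. There the 0 for the 35 genes was fixed in advance and adds nothing. Under the other alternatives between 4 genes (median centring) and 130 genes (without scaled-up spots) passed. The median log2 ratio of 0.01 was -0.19 with median centring (all genes -0.17) and -0.41 without within-array normalization (all genes -0.39), and it was 0.019 without replicate 2 and 0.11 without replicate 1. The 14 genes higher on both arrays were 1 with median centring, 0 without within-array normalization and 9 of 29 without scaled-up spots. The 7 genes lower on both arrays were 3 with the mean of a gene's probes and 4 of 29 without scaled-up spots. The count at an unadjusted p of 0.05, 0 as reported, was 2 without the filter on dim probes, 2 with the mean of probes and 3 of 29 without scaled-up spots. The cause of these moves was not tested, beyond the shift of all genes and the 6 genes lost with the scaled-up spots. Of 208 values of the named genes under the alternatives, 178 kept their sign and 30 took the other, with 0 past the threshold. Settings in which no gene of the array passed could give no other count. Part of the kept signs was likewise fixed in advance. Separate channels, another prior, no filter on dim probes and a filter on both channels left the ratios of the named genes as reported. Genes with 1 probe could not move under the mean of probes. Without scaled-up spots, genes whose brightest probe had no flag could not move either. A single array leaves no residual degrees of freedom, so no test was run on it. The fit of the ratios is paired by array, because each ratio sets the 2 pools of an array against each other. The alternative with separate channels had no term for the array.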
